A study of Homo sapiens with 4 samples.

Results

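Teneurins and latrophilins are large cell-surface proteins that hold neighbouring cells together and signal between them. The group studied here was the 4 human teneurin genes (TENM1, TENM2, TENM3 and TENM4) and the 3 latrophilin genes (ADGRL1, ADGRL2 and ADGRL3), found by their gene symbols. All 7 were present among the 60623 genes of the count tables, and all 7 had enough reads to enter the comparison. They were chosen with results of this same comparison in view, so their differences are given as a description, without a p-value.

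The RNA-seq libraries were made from the human cell line BICR10, labelled as head and neck cancer, after infection with lentivirus carrying a short hairpin RNA. The hairpin was either a control (shControl, 2 libraries) or directed against YEATS2 (shYEATS2, 2 libraries), a reader of acylated histone tails that belongs to a histone acetyltransferase complex. Both groups were selected with puromycin at 1 μg/mL for 3 days. The comparison asks which genes change when YEATS2 is silenced. Which YEATS2 hairpin each library carried is not given in the sources used here. The study describes its replicates in general as biological, but does not say whether the libraries of a group came from separate cultures. The SDs therefore measure the spread between these libraries, which may be technical, and the p-values rest on such spread.

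A teneurin crosses the membrane of one cell and reaches out as a dimer, and its large extracellular domain binds a latrophilin on the facing cell. Latrophilins are adhesion G protein-coupled receptors, which cut themselves within a conserved domain close to the membrane and can signal through G proteins to RHOA. They also bind FLRT proteins, and FLRT proteins bind UNC5 receptors, so that several partners can meet at 1 contact. These genes are best known from the wiring of neurons, where teneurin and latrophilin pairs guide axons and the formation of synapses, and neurexins, dystroglycan and contactins are among their other partners. Teneurin and latrophilin transcripts are also found in many non-neural tissues and tumours.

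The targeted gene was lower in both shYEATS2 libraries. YEATS2 stood at 66.1 and 66.7 CPM (counts scaled to a common library total with TMM, edgeR's trimmed mean of M values) in the shControl libraries and at 29.2 and 29.1 CPM in the shYEATS2 libraries, a log2 difference of −1.19 with a standard error (SE) of 0.08. The total of counts on genes was 39824898 to 47297970 in shControl and 11334133 to 24072396 in shYEATS2, so depth was lower in every shYEATS2 library and cannot be told apart from the condition. Of 17058 genes tested, 7876 (46.2%) passed an adjusted p of 0.05, with 3857 (22.6%) higher and 4019 (23.6%) lower in shYEATS2. Scaled by library totals alone, the median of all genes moved from −0.01 to 0.13 on the log2 scale and 67.9% of the genes called (5441 of 8008) were higher.

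The cell type label was compared with marker lists. Among 8 epithelial markers, not all of them particular to squamous cells, 3 reached 1 CPM in every library. The sum of the 8 was 259 and 259 CPM in shControl and 219 and 203 CPM in shYEATS2, carried mostly by KRT18 and SFN. Within this list KRT5 (−3.78 on the log2 scale), KRT14 (−2.31) and KRT18 (−0.55) fell, EPCAM fell by 1.07 and CDH1 rose by 2.91. CDH1 rose from a very low level, 0.353 and 0.318 CPM in shControl, to 2.84 and 2.12 CPM in shYEATS2. EPCAM was also low, at 1.23 and 0.794 CPM against 0.474 and 0.509 CPM. TP63, the lineage factor of squamous epithelium, had 0 to 3 counts per library. Among 7 fibroblast markers, 6 reached 1 CPM in every library, and their sum was 7287 and 7195 CPM in shControl against 2349 and 2212 CPM in shYEATS2, with COL1A1 and COL1A2 highest and THY1 at 0 to 13 counts. Of 8 neuronal markers, 3 reached 1 CPM in every library, SNAP25 was at 0, and the sum was 41.7 and 40.9 CPM in shControl and 18.6 and 19.3 CPM in shYEATS2, mostly from NEFL, which fell by 2.02, while SYT1 rose by 1.43 and GAP43 by 2.67. GAP43 had only 3, 3, 13 and 5 counts. Endothelial markers summed to 35.5 and 36.4 CPM in shControl and 18.6 and 19.6 CPM in shYEATS2, nearly all of it KDR, while CDH5 was at 0 or 1 count. CD3E and CD68, of the leukocyte list, were at 0 in every library. The epithelial, fibroblast, neuronal and endothelial sums were all lower in both shYEATS2 libraries, although single markers moved both ways, and their part in the differences below was not tested. In bulk RNA, fewer cells expressing a gene and less of its RNA per cell cannot be told apart.

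Among the teneurins and latrophilins, TENM1 was higher in shYEATS2, TENM2 and ADGRL3 were lower, and TENM3, TENM4, ADGRL1 and ADGRL2 did not pass the threshold. That is 3 of 7 genes (42.9%), beside 46.2% of all genes tested, and nothing is read from this share because the genes were chosen on this contrast. The median log2 difference of the 7 was −0.16, beside −0.01 over all genes tested. Only TENM1 and TENM2 of the 7 passed with at least a 2-fold difference, beside 1653 of the 17058 genes tested. Nothing is read from this count either, and the differences of TENM1 and TENM2 have opposite signs.

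**Figure D1:**
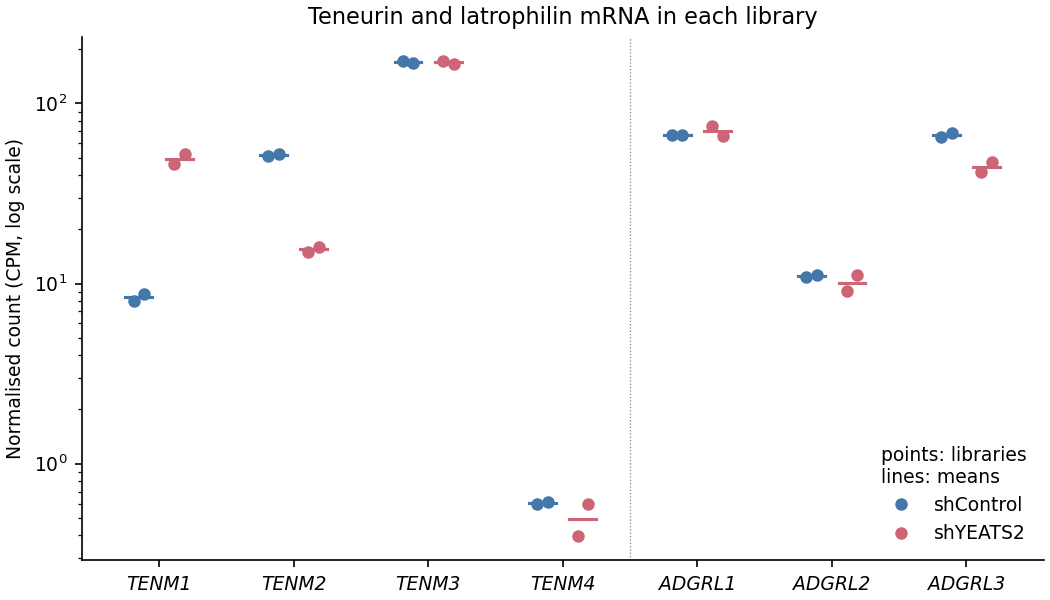
Level of each teneurin and latrophilin gene in the 4 libraries, as TMM-scaled CPM on a log axis. Each point is 1 library and each short line the mean of 2. TENM1 sits higher and TENM2 and ADGRL3 sit lower in both shYEATS2 libraries, while the points of TENM3, ADGRL1 and ADGRL2 overlap between conditions.

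The sequences upstream of the genes are shown for the 3 members that passed the threshold and for TENM3, the most abundant and the steadiest, to show the annotated sequence before their listed starts. Whether these starts were used in these cells is not shown by counts per gene. Each run is the 250 bases before the most upstream start that RefSeq lists for the gene (build GRCh38.p14), 5′ to 3′ on the strand of the gene, with CpG dinucleotides in capitals. The runs lie at chrX:125204313-125204562 on the minus strand for TENM1, at chr5:167072992-167073241 on the plus strand for TENM2, at chr4:182143713-182143962 on the plus strand for TENM3 and at chr4:61200076-61200325 on the plus strand for ADGRL3.
TENM1: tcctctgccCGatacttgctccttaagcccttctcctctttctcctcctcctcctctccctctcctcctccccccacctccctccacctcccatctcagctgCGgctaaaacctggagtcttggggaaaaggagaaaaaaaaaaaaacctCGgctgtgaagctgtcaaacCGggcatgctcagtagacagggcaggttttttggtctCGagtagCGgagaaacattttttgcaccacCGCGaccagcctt
TENM2: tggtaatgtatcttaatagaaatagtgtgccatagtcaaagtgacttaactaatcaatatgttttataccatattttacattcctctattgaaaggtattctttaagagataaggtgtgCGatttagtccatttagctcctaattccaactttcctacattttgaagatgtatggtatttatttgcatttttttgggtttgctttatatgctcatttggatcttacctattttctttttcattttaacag
TENM3: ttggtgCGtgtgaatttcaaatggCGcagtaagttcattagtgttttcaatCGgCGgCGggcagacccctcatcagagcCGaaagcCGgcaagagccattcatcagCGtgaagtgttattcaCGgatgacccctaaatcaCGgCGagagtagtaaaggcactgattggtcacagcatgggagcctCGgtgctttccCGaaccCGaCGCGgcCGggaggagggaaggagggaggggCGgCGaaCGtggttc
ADGRL3: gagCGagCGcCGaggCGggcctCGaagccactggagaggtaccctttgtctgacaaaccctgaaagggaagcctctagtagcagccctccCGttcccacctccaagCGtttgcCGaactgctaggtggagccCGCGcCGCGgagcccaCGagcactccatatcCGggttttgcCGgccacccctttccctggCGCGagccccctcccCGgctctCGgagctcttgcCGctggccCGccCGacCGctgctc
The choice of start, window and capitals was made after the values had been seen.

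These windows ran from poor to rich in CpG. The TENM2 run held 1 CpG and the TENM1 run 8, against 20 in TENM3 and 23 in ADGRL3. Over the 300 bases that also take in the first 50 transcribed bases, GC content was 32.0% in TENM2, 57.3% in TENM1, 55.0% in TENM3 and 69.7% in ADGRL3, beside a median of 58.7% over 34796 distinct windows of that length. TENM2 lay at the 1.96th percentile of GC content. Its window lies 94.2 kb inside the annotated gene, so its base content and motif matches may not be those of a promoter. Whether it acts as a promoter was not tested. The ratio of observed to expected CpG was 0.391 in TENM2, 0.647 in TENM1, 0.996 in TENM3 and 0.851 in ADGRL3, beside a median of 0.578. Of the others, ADGRL2 resembled TENM2 with 37.3% GC and a ratio of 0.391, and TENM4 had 66.3% GC and a ratio of 0.929, although neither of these genes passed the threshold. Of the 7 genes, 6 matched an entry and ADGRL1 did not.

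The windows were searched on both strands for a few short motifs. The TATA box letters TATAAA matched at 2 places in the TENM2 window, both on the strand opposite to the gene and not overlapping, and in 11.6% of all windows, and the GC box GGGCGG matched once each in TENM3 and ADGRL3 and in 44.9% of all windows. No window of a member held the E-box CACGTG (7.20% of all windows), the AP-1 letters TGANTCA (7.73%) or the amino acid response core TGATGNAA (3.63%). The most upstream RefSeq start of TENM2 lay 94.2 kb inside the start of the GENCODE gene.

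TENM1 (ENSG00000009694) lies on the minus strand at chrX:124375903-125204312 in GRCh38, spans 828 kb, and has 31 exons in its canonical transcript. It encodes a teneurin whose intracellular part can be released and has been tied to the nucleus. TENM1 stood at 8.02 and 8.73 CPM in shControl and at 46.1 and 52.1 CPM in shYEATS2, from 364, 330, 1168 and 614 counts. Both shYEATS2 libraries were above both shControl libraries, and the groups did not overlap. Such separation was common with 2 libraries per group. Of 17058 genes tested, the shYEATS2 libraries were both above in 6013 and both below in 6194. The raw counts were also higher in the shYEATS2 libraries, although these were the shallower ones. Mean TENM1 was 49.1 ± 4.24 CPM in shYEATS2 against 8.38 ± 0.501 CPM in shControl (SD, n = 2 each), a fitted difference of 2.54 on the log2 scale (SE 0.10, 95% interval 2.35 to 2.74), or 5.83-fold. Over the 4 pairs of 1 library from each condition, the log2 difference ranged from 2.40 to 2.70.

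TENM2 (ENSG00000145934), the teneurin whose binding to latrophilins was described early and which is placed at synapses, lies on the plus strand at chr5:166979029-168264157. It has 31 exons in its canonical transcript over 1285 kb. TENM2 stood at 51.0 and 52.1 CPM in shControl and at 14.9 and 16.0 CPM in shYEATS2, from 2312, 1968, 378 and 189 counts. Both shYEATS2 libraries were far below both shControl libraries. The mean went from 51.5 ± 0.784 to 15.5 ± 0.789 CPM (SD, n = 2 each), a difference of −1.75 on the log2 scale (SE 0.09, 95% interval −1.93 to −1.57), which left 29.8% of the control level. Over the 4 library pairs the log2 difference lay between −1.80 and −1.67.

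TENM3 (ENSG00000218336), which helps match neurons of the visual system and hippocampus to their targets, lies on the plus strand at chr4:182143987-182803024 with 28 exons over 659 kb. TENM3 stood at 173 and 168 CPM in shControl and at 173 and 166 CPM in shYEATS2. The libraries of the groups overlapped, with a lower and a higher library in each. The mean was 170 ± 3.37 CPM in shControl and 169 ± 5.14 CPM in shYEATS2 (n = 2 each), and the 95% interval of the log2 difference ran from −0.13 to 0.12 around −0.01. TENM3 was the member with the highest counts, 1952 to 7831 per library, and its interval was the narrowest of the 7. The sign of so small a difference changed with the scaling, which gave 0.13 with library totals alone.

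TENM4 (ENSG00000149256), a teneurin linked to myelination and to inherited tremor, lies on the minus strand at chr11:78652829-79441030 with 34 exons over 788 kb. TENM4 had 27 and 23 counts in shControl and 10 and 7 counts in shYEATS2, which is 0.595, 0.609, 0.395 and 0.594 CPM. The shYEATS2 library with the higher value lay just under both shControl libraries, so the groups did not overlap but were barely apart. The log2 difference was −0.37 with a 95% interval of −1.37 to 0.64, so neither a 2-fold fall nor a small rise could be told apart from no difference at this depth.

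Since the genes differ in length, levels were compared between genes per kilobase of annotated exon. In shControl, TENM3 led with 14.2 ± 0.280 CPM per kb, followed by TENM2 with 2.42 ± 0.0368, TENM1 with 0.618 ± 0.0370 and TENM4 with 0.0367 CPM per kb. In shYEATS2, TENM3 still led with 14.1 ± 0.428 CPM per kb, TENM1 came next with 3.62 ± 0.313, and TENM2 followed with 0.727 ± 0.0370. TENM1 and TENM2 thus exchanged places. Within shControl libraries TENM2 was 4.04 and 3.79 times TENM1 per kb, and within shYEATS2 libraries TENM1 was 4.86 and 5.11 times TENM2. The sizes of these ratios depend on the length used: per kb of the canonical transcript, a length taken up after the values had been seen, they were 7.90 and 7.41 in shControl and 2.49 and 2.61 in shYEATS2.

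As a share of the teneurin sum per kb, TENM1 made up 3.41% and 3.77% in shControl and 18.4% and 20.9% in shYEATS2. TENM2 made up 13.8% and 14.3% in shControl and 3.78% and 4.09% in shYEATS2. TENM3 remained the bulk of the sum, with 82.6% and 81.7% in shControl and 77.7% and 74.8% in shYEATS2. The sum itself was 17.3 ± 0.206 CPM per kb in shControl and 18.5 ± 0.0695 in shYEATS2, a log2 ratio of 0.10. Per kb of the canonical transcript the sum was 21.4 and 21.1 in shControl and 20.9 and 20.8 in shYEATS2, a log2 ratio of −0.03, so the sign of this small difference depends on the length. By that length TENM1 made up 2.91% and 3.21% in shControl and 17.2% and 19.5% in shYEATS2, TENM2 went from 23.0% and 23.8% to 6.90% and 7.45%, and TENM3 stood at 72.8% to 75.8% in all libraries.

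**Figure D2:**
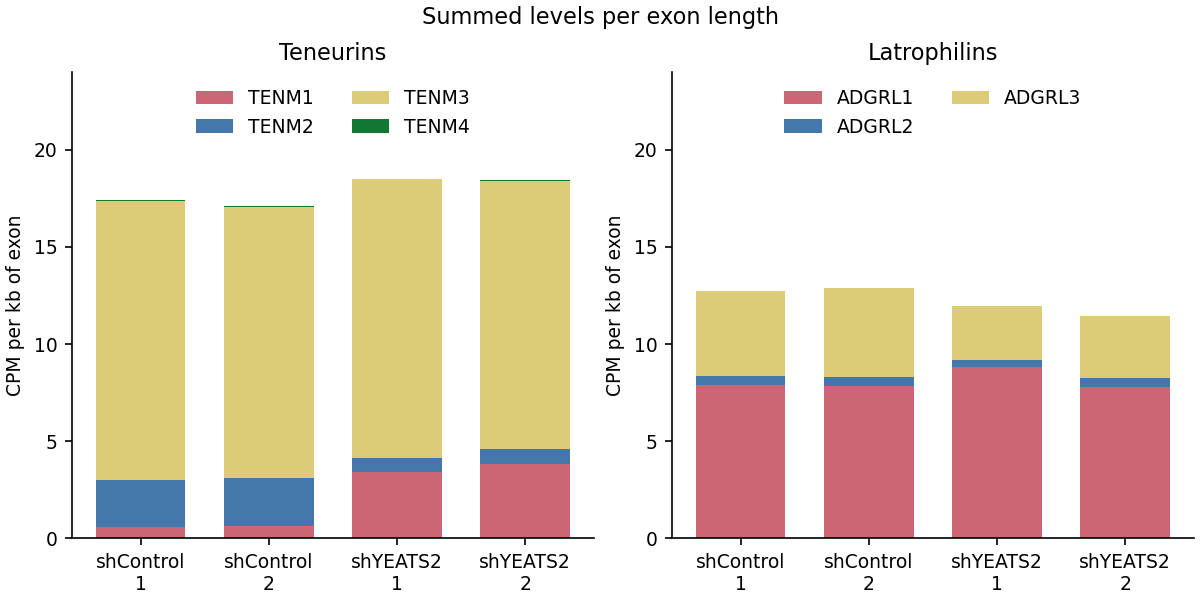
Level of each gene in CPM per kb of exon, stacked to the summed level of the teneurins and of the latrophilins, 1 bar per library. TENM1 goes from 3.41% and 3.77% to 18.4% and 20.9% of the teneurin sum while TENM2 goes the other way, and ADGRL3 makes up less of the latrophilin sum in shYEATS2.

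Of the receptors, ADGRL3 was lower in shYEATS2 and ADGRL1 and ADGRL2 did not pass the threshold. ADGRL3 (ENSG00000150471), a latrophilin that binds teneurins and FLRT3 and has been associated with attention deficit, lies on the plus strand at chr4:61200326-62078335 with 27 exons over 878 kb. ADGRL3 stood at 65.5 and 68.5 CPM in shControl and at 41.8 and 47.2 CPM in shYEATS2. The groups did not overlap, with the shYEATS2 libraries the lower ones. The mean went from 67.0 ± 2.14 to 44.5 ± 3.80 CPM (SD, n = 2 each), a difference of −0.60 on the log2 scale (SE 0.07, 95% interval −0.75 to −0.45), which left 65.8% of the control level. ADGRL3 is on the list that the study made of genes with less histone crotonylation at the promoter and lower RNA, and no other member is. None of the 7 is on the study's list of genes with a YEATS2 peak at the promoter. The list of genes with less crotonylation was chosen partly on these same libraries, so it is not independent evidence of the direction.

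ADGRL1 (ENSG00000072071), the receptor through which the spider toxin α-latrotoxin was traced to this family, lies on the minus strand at chr19:14147743-14206187 and is the shortest member, at 58.4 kb with 23 exons. ADGRL1 stood at 67.0 and 66.6 CPM in shControl and at 74.7 and 66.2 CPM in shYEATS2. One shYEATS2 library was above and the other just below the shControl libraries. The log2 difference was 0.09 (95% interval −0.05 to 0.23). With library totals alone it was 0.22 and passed the threshold, and without shYEATS2 library 2 it was 0.16 and passed, while without shYEATS2 library 1 it was −0.03.

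ADGRL2 (ENSG00000117114), a latrophilin found in many tissues and at hippocampal synapses, lies on the plus strand at chr1:81306147-81993932 with 24 exons over 688 kb. ADGRL2 stood at 10.9 and 11.2 CPM in shControl and at 9.12 and 11.1 CPM in shYEATS2. The groups overlapped, and the log2 difference was −0.16 (95% interval −0.41 to 0.09).

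Per kilobase of exon, ADGRL1 led the latrophilins in both conditions, with 7.87 ± 0.0311 CPM per kb in shControl and 8.30 ± 0.708 in shYEATS2. ADGRL3 came next with 4.49 ± 0.144 and 2.98 ± 0.255 CPM per kb, and ADGRL2 was lowest with 0.457 ± 0.00680 and 0.418 ± 0.0584. The ratio of ADGRL1 to ADGRL3 was 1.80 and 1.71 in shControl and 3.14 and 2.47 in shYEATS2. The share of ADGRL3 in the latrophilin sum went from 34.5% and 35.6% to 23.4% and 27.7%. The sum over the 3 genes was 12.8 ± 0.119 CPM per kb in shControl and 11.7 ± 0.395 in shYEATS2, a log2 ratio of −0.13.

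Over both families, the order per kb of exon in shControl was TENM3, ADGRL1, ADGRL3, TENM2, TENM1, ADGRL2 and TENM4, and each neighbour in it was separated from the next by more than the SD of its libraries. The order of some neighbours depends on the length used. Per kb of the canonical transcript, TENM2 (4.98 CPM per kb) and ADGRL3 (4.87 CPM per kb) changed places, and so did ADGRL2 (1.49) and TENM1 (0.651). In shYEATS2 the order was TENM3, ADGRL1, TENM1, ADGRL3, TENM2, ADGRL2 and TENM4 by either length. Among all genes tested, TENM3 stood at the 83.0th percentile of level per kb in shControl and the 82.9th in shYEATS2, TENM1 went from the 25.3th to the 55.0th, and TENM2 from the 47.1th to the 26.7th.

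**Figure D3:**
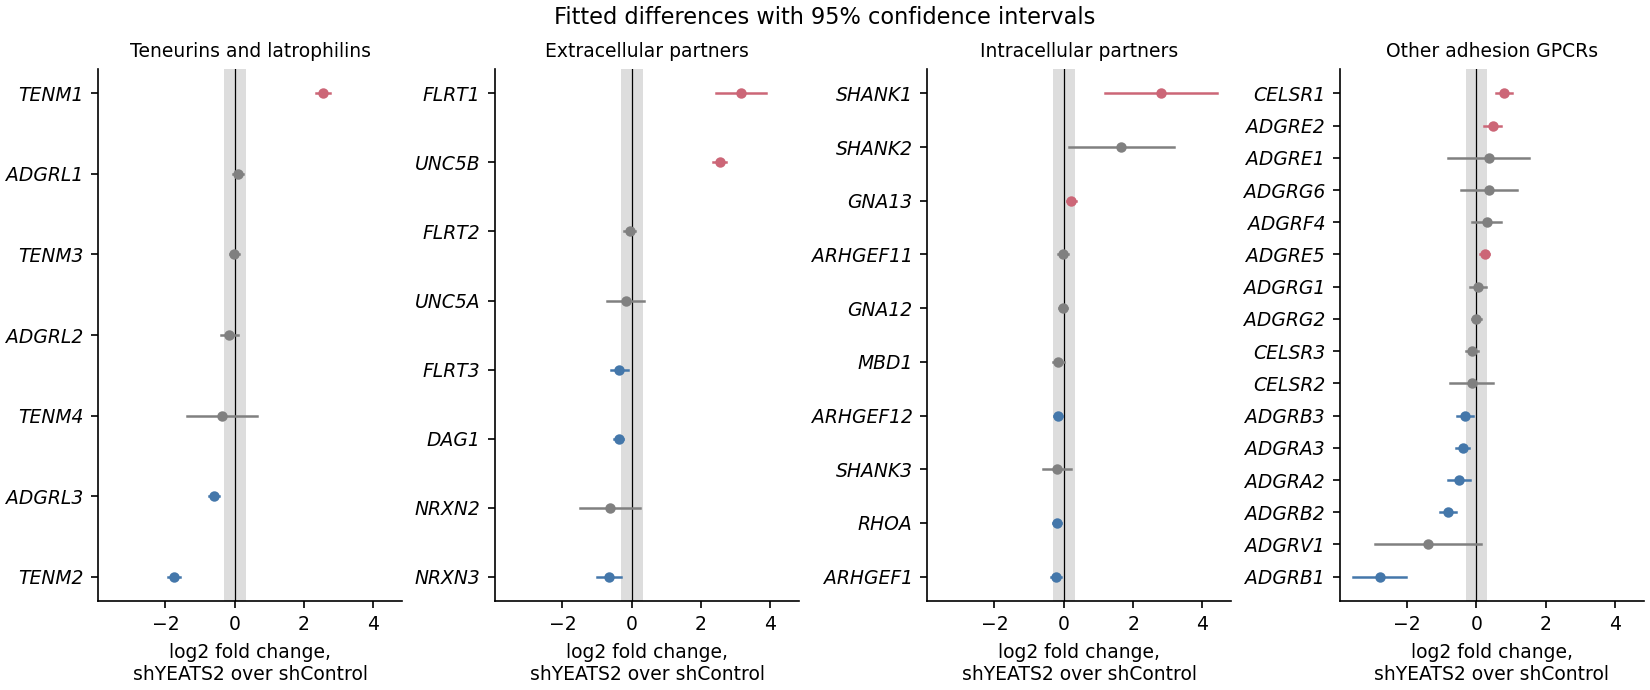
Log2 difference of shYEATS2 against shControl for the teneurins, the latrophilins and their partner genes, from the edgeR fit, with 95% intervals as bars, higher calls in red, lower calls in blue and the middle 50% of all genes tested as a grey band. TENM1 lies at 2.54 and TENM2 at −1.75, and among the partners FLRT1, SHANK1 and UNC5B lie above 2.

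The genes of the extracellular partners were taken from a list of 11, the FLRT and UNC5 genes, NRXN2, NRXN3, DAG1 and CNTN6, of which 8 were tested. This list and those that follow were chosen with earlier results of these data known. Their shares and adjusted p-values are therefore a description, not a test of the lists or of their genes. In shYEATS2, 2 rose and 3 fell (25% and 37.5%, beside 22.6% and 23.6% of all genes), and the median log2 difference was −0.26. Without shControl library 2 the list had 3 calls in place of 5. FLRT1, FLRT2 and FLRT3 encode leucine-rich repeat proteins that bind latrophilins on one side and UNC5 receptors on the other. FLRT1 had 9 and 18 counts in shControl and 81 and 31 in shYEATS2, or 0.198, 0.476, 3.20 and 2.63 CPM. It rose from a very low level, by 3.16 on the log2 scale (SE 0.36, edgeR adjusted p = 2.3e-11). FLRT2 stood at 50.7 and 51.6 CPM in shControl and 47.7 and 50.9 CPM in shYEATS2, overlapped between groups, and did not pass (−0.06, SE 0.07). FLRT3 stood at 13.2 and 14.4 CPM in shControl and 10.7 and 10.9 CPM in shYEATS2, and fell by 0.35 (SE 0.12, edgeR adjusted p = 0.0098). This call was lost with library totals, with DESeq2, with counts thinned to equal depth and without shControl library 2.

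UNC5B, a netrin receptor, rose. It stood at 9.70 and 11.9 CPM in shControl and at 66.6 and 56.8 CPM in shYEATS2, a difference of 2.53 on the log2 scale (SE 0.09, edgeR adjusted p = 8.5e-29), or 5.79-fold. All 4 libraries separated by condition. UNC5A stood at 1.87 and 2.46 CPM against 2.29 and 1.27 CPM and overlapped, and UNC5C (0 to 2 counts per library) and UNC5D (0 to 7 counts) were too low to test.

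Neurexins are presynaptic adhesion proteins that join latrophilin and neuroligin contacts. NRXN3 stood at 5.18 and 6.38 CPM in shControl and 3.91 and 3.22 CPM in shYEATS2 and fell by 0.66 (SE 0.18, edgeR adjusted p = 0.0018), a call that was lost without shControl library 2. NRXN2 was under 1 CPM in every library and did not pass. DAG1, the gene of dystroglycan, to which teneurin peptides bind, stood at 186 and 199 CPM in shControl and 153 and 143 CPM in shYEATS2 and fell by 0.37 (SE 0.06, edgeR adjusted p = 7.2e-07). CNTN6, a contactin, had at most 1 count per library.

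The genes of the intracellular partners were 10, all tested, of which 2 rose and 3 fell (20% and 30%, beside 22.6% and 23.6% of all genes). Their median log2 difference was −0.09. They comprise the G12 family proteins, the exchange factors they drive, RHOA, the SHANK scaffolds that hold latrophilin tails, and MBD1, which has been tied to the teneurin tail. GNA13 stood at 88.7 and 93.4 CPM in shControl and 104 and 108 CPM in shYEATS2 and rose by 0.22 (SE 0.07, edgeR adjusted p = 0.0049). RHOA, the small GTPase at the end of this route, stood at 462 and 505 CPM against 421 and 421 CPM and fell by 0.20 (SE 0.06, edgeR adjusted p = 0.0038). The exchange factors ARHGEF1 and ARHGEF12 fell by 0.22 and 0.16, while ARHGEF11 (−0.02) and GNA12 (−0.03) did not pass. With library totals alone, 3 genes of this list rose and 0 fell, so the falls did not pass under every scaling. Leaving out shControl library 1 ended the calls of GNA13, ARHGEF12 and SHANK1, leaving out shControl library 2 those of RHOA, ARHGEF1 and ARHGEF12, leaving out shYEATS2 library 1 that of ARHGEF12 and leaving out shYEATS2 library 2 that of ARHGEF1. SHANK1 had too few counts to be tested when either shYEATS2 library was left out, and ARHGEF12 did not pass with DESeq2. SHANK1 rose by 2.80 (SE 0.82, edgeR adjusted p = 0.0033) from 2 and 3 counts to 8 and 8, and SHANK2, SHANK3 and MBD1 did not pass.

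Latrophilins were then set beside the other adhesion G protein-coupled receptors. Of 29 such genes, 16 were tested, of which 3 rose (18.8%) and 5 fell (31.2%), beside 22.6% and 23.6% of all genes. Their median log2 difference was −0.06. ADGRB1, a brain angiogenesis inhibitor and phagocytic receptor, fell most, from 103 and 98 counts to 9 and 4, or 2.27 and 2.59 CPM to 0.355 and 0.339 CPM (−2.78, SE 0.38, edgeR adjusted p = 6.3e-09). ADGRB2 fell from 14.6 and 15.9 to 8.61 and 8.74 CPM (−0.82, SE 0.12), and ADGRA2, ADGRA3 and ADGRB3 fell by 0.50, 0.40 and 0.32. CELSR1, a planar polarity cadherin, rose from 9.61 and 10.5 to 17.8 and 17.0 CPM (0.80, SE 0.11), and ADGRE2 and ADGRE5 rose by 0.48 and 0.24. ADGRE5 (CD97) stood at 168 and 167 CPM in shControl and 206 and 190 CPM in shYEATS2. ADGRG2 was the steadiest, at 75.3 and 78.6 against 75.8 and 78.4 CPM. ADGRL4, which shares the latrophilin name but not the teneurin-binding domains, had 5, 5, 4 and 0 counts and was not tested. The call of ADGRA2 was lost without shYEATS2 library 2, that of ADGRB3 without shControl library 2 or shYEATS2 library 1, and those of ADGRA3 and ADGRE2 with counts thinned to equal depth. The calls of ADGRA2 and ADGRB3 were also lost with DESeq2 and with library totals alone.

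**Figure D4:**
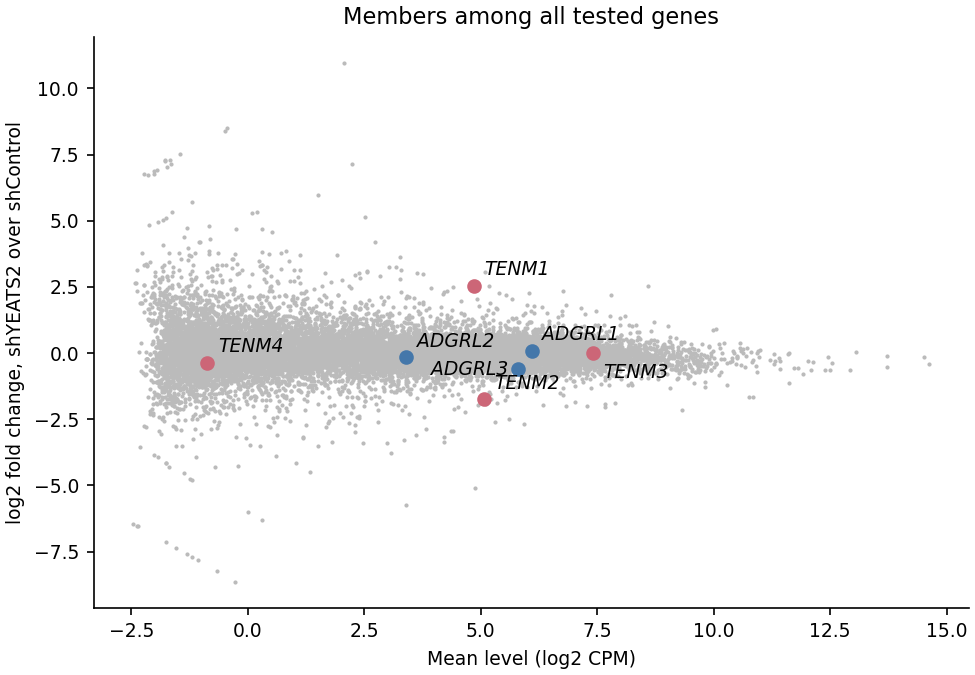
Log2 difference of shYEATS2 against shControl (vertical axis) by mean log2 CPM (horizontal axis) for all 17058 tested genes in grey, with the teneurins and latrophilins marked. TENM1 and TENM2 lie outside the bulk of genes of their level, and TENM3, ADGRL1 and ADGRL2 lie within it.

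Among the called genes, TENM1 had the 159th largest rise and TENM2 the 234th largest fall, with ADGRL3 at 1375. The middle 50% of all genes tested lay between −0.31 and 0.32 on the log2 scale. The genes nearest in pattern over the 4 libraries were found by the distance between log2 CPM values centred on their mean. These values carried a prior count of 2, which shrinks the differences of genes with few counts. The nearest were PRKG2, AC010983.1 and XAGE2 for TENM1 (distances 0.063, 0.087 and 0.095) and FAM111B, GPC6 and CASC2 for TENM2 (0.073, 0.093 and 0.093). PRKG2, AC010983.1 and XAGE2 had few counts, and their fitted log2 differences (2.95, 3.45 and 2.79) were larger than that of TENM1 (2.54). PRKG2 stood at 0.132, 0.159, 1.07 and 1.27 CPM, in the order shControl 1 and 2 and shYEATS2 1 and 2. FAM111B stood at 55.1, 59.6, 16.4 and 18.4 CPM.

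Annotated overlaps and neighbours were inspected, since the kit was stranded but the strand setting of the counting is not given in the sources used here, so reads of a gene and of its antisense partner cannot be told apart. TENM1 shares 241 exonic bases with STAG2 on the opposite strand, and STAG2 was level, at 193 ± 6.28 CPM in shControl and 193 ± 4.02 in shYEATS2 (n = 2 each). A processed pseudogene inside TENM1 on its strand shares 508 exonic bases, had 8, 3, 21 and 5 counts and was called higher (log2 difference 2.33, SE 0.63). TENM3 shares 115 exonic bases with TENM3-AS1 and 118 with another noncoding gene on the opposite strand, which had 4, 4, 2 and 3 counts. ADGRL1 shares 473 with ADGRL1-AS1 and ADGRL3 shares 153 with ADGRL3-AS1, which had 3, 2, 0 and 0 counts. TENM2, TENM4 and ADGRL2 share no exonic base with another annotated gene. No stretch of 31 bases was common to transcripts of any pair of members, so reads could not be split between them over such a length.

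The protein-coding genes next to the members moved in different ways. On either side of TENM1 lie SH2D1A, which had 0 or 1 count, and TEX13C, which had 8, 8, 27 and 6 counts and rose by 2.13 (SE 0.55, edgeR adjusted p = 9.05e-04). WWC1, 27.5 kb from TENM2, was level, with a log2 difference of 0.01, and DCTD, 87.0 kb from TENM3, likewise with 0.02. ASF1B, 11.1 kb from ADGRL1, went from 81.3 ± 2.20 to 56.0 ± 5.36 CPM (−0.52, SE 0.07, edgeR adjusted p = 4.4e-09), while ADGRL1 itself did not pass.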

How the data were processed

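RNA-seq of BICR10 cells gave 4 libraries, 2 shControl and 2 shYEATS2, grouped by their labels. The authors prepared stranded mRNA libraries, sequenced 150 bp read pairs, aligned them to GRCh38 with STAR and deposited whole-number counts per gene from HTSeq, without normalization. The study's resource table names an HTSeq version, whereas the STAR version, the gene annotation and the strand option are not given in the sources used here. Rows that name no gene were left out. No other measurement of the study was analysed here.

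Counts were filtered with filterByExpr, scaled with TMM and tested over all 17058 kept genes by the robust quasi-likelihood test of edgeR 4.0.16 (glmQLFit, glmQLFTest, two-sided) in R 4.3.3, with Benjamini-Hochberg adjustment and a threshold of 0.05, with no covariates. SDs are over 2 libraries, and an exact permutation test of 2 against 2 cannot go below p = 0.333. Replicates differed by more than counting noise (chi-square per gene 5.95 and 5.39), so none was counted as a duplicate. Positions, lengths and overlaps came from GENCODE release 44, matched by identifier, and promoter windows from RefSeq.

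The members and lists were chosen with earlier results of these data known, and some partner genes are not reported here and were left out of the counts. All members, all partner genes that passed the threshold, the genes next to members, and the 3 genes nearest in pattern to TENM1 and TENM2 could be named. The alternatives were other scalings, filters and tests (DESeq2 1.42.0, limma 3.58.1), thinning to equal depth, a 2-fold minimum, a replicate block and each library left out in turn.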

Additional observations from a re-analysis of the deposited data

How the results depend on the processing

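TENM1 (2.46 to 2.68), TENM2 (−1.79 to −1.61), ADGRL3 (−0.68 to −0.47) and YEATS2 (−1.23 to −1.05) kept their log2 direction and their call in the 13 alternatives that refit the data, while a 2-fold minimum ends the call of ADGRL3. TENM3 changed sign with library totals (0.13), upper quartiles (0.0054) and thinning (0.039), and leaving out a library gave −0.054 to 0.017. ADGRL1 passed the threshold with library totals (0.22), and leaving out a library gave −0.027 to 0.16, with a call without shYEATS2 library 2. A minimum of 2-fold left 1653 genes called in all, 2 extracellular partners, 1 intracellular partner and 1 other adhesion receptor. Intracellular partners called were 3 with library totals, and 2 to 3 with a library left out. Extracellular partners called were 3 to 5 with a library left out. DESeq2 called 5769 genes in all, thinned counts 6265, and leaving out a library 5666 to 7728, with a lone library assumed to vary like the other condition. The cause of these changes was not tested. Libraries 1 and 2 share only a number across conditions (their differences correlate at −0.018), so no pairing was used, and a replicate block gave 8012 calls in all against 7876. Low counts left TENM4 with a wide interval, and UNC5C, UNC5D and CNTN6 untested.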

Other observations

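Most of the members are very long genes, and a set of long genes was looked at after the values had been seen. Of 197 other protein-coding genes spanning at least 500 kb that were tested, 67 (34.0%) were higher and 54 (27.4%) lower in shYEATS2. Their median log2 difference was 0.04. Among 1053 such genes of at least 200 kb, 314 (29.8%) were higher and 279 (26.5%) lower. Over all tested genes, which include noncoding ones, the shares were 22.6% and 23.6%. Shares of protein-coding genes alone were not computed, and whether length, gene type or level plays a part was not tested. TENM1 (828 kb) and TENM2 (1285 kb) are both long and moved in opposite directions.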
